A study of Mus musculus with 6 samples.

Results

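The Krüppel-like factors other than KLF1 were represented by 9 genes: Klf2, Klf3, Klf4, Klf5, Klf6, Klf7, Klf9, Klf10 and Klf13. They were taken by symbol from the platform annotation, which names 18194 genes by a single symbol, and they had 33 of the 45101 probe sets on the array. All samples were ICR mouse embryos at 8.5 days post coitum with 3 to 4 somites, a stage before blood circulates. The 6 Affymetrix arrays held 2 arrays each of Flk1-positive cells (Flk1 is a VEGF receptor, the product of Kdr), of wild-type (WT) embryos and of Flk1 knockout (Flk1 KO) embryos. The tissue dissected was the embryo proper. The series design names Flk1+/GFP embryos as a source, while the label of the cells gives no allele, so group and a possible difference of genotype cannot be told apart. The knockout allele, the way the cells were selected and any pooling of embryos are not given in the sources used here, and the number of arrays limits the precision.

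Krüppel-like factors are transcription factors whose carboxy-terminal C2H2 zinc fingers bind GC-rich and CACCC elements, and their amino-terminal parts recruit activators or repressors. In endothelium, Klf2 and Klf4 are known as the factors that laminar shear stress induces through the MEKK3, MEK5 and ERK5 kinases and MEF2 proteins, and the CCM proteins (cerebral cavernous malformation) restrain that cascade. At the stage sampled here the heart tube is forming and flow has not begun, so the embryos were taken before that stimulus. Whether handling of the cells changed the levels of these genes was not tested.

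The sequences 250 bases upstream of the start of 5 members are shown because these genes differed between Flk1-positive cells and WT embryos and because the known MEF2 input to Klf2 acts through its promoter. They are RefSeq sequences of build GRCm38.p6, written from 5′ to 3′ on the gene's strand, and capitals mark matches to GGGCGG, to CACCC and to the MEF2 motif on either strand. Klf2 lies on the plus strand with the window at chr8:72318812-72319061, Klf4 on the minus strand at chr4:55532476-55532725, Klf6 on the plus strand at chr13:5861239-5861488, Klf7 on the minus strand at chr1:64121390-64121639 and Klf9 on the plus strand at chr19:23140976-23141225.
Klf2: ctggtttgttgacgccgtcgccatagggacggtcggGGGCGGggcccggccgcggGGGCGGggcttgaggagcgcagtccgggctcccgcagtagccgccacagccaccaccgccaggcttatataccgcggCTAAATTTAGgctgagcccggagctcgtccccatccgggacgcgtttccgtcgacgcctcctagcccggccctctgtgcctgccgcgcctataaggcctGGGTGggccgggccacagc
Klf4: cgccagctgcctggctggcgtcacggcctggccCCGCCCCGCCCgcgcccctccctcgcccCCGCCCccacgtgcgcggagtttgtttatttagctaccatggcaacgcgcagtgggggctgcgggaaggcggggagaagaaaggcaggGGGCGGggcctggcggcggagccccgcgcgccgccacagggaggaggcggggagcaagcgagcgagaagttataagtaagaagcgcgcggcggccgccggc
Klf6: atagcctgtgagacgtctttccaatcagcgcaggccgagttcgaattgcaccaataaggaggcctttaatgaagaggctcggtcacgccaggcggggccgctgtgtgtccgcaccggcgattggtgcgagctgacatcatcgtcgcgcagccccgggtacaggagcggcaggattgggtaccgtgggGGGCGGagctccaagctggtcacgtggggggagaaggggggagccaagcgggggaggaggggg
Klf7: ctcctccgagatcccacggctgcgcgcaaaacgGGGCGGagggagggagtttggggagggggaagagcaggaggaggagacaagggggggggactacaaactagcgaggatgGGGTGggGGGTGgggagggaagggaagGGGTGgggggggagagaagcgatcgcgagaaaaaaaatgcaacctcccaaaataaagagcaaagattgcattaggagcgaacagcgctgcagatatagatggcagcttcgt
Klf9: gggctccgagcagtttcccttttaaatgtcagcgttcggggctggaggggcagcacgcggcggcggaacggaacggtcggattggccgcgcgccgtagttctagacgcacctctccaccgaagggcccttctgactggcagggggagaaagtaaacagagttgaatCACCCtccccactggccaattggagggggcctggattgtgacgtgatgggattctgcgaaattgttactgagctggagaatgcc

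Windows were found for 7 of the 9 members, and those of Klf5 and Klf10 were not among them. The MEF2 motif was matched in the Klf2 window alone, by the sequence ctaaatttag, whose last base lies 109 bases upstream of the start. Of all 32851 upstream windows of this length, 2.92% held a match. GGGCGG, the GC box that Krüppel-like and SP factors bind, was present in 6 of the 7 windows and in 32.7% of all windows. CACCC was present in 5 of the 7 and in 52.0% of all windows, and matches of both motifs share a base in the Klf3 and Klf13 windows. TGACG, the core of cyclic AMP response elements, was present in 4 of the 7 (17.8% of all windows), and the CArG box of serum response factor in none of the 7 (1.47% of all windows). These matches describe the letters of the windows and are not binding data. The GC content of the 7 windows ran from 59.2% (Klf7) to 78.4% (Klf3). All windows were not matched to them for it, and the part of base composition in these shares was not tested.

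Kdr, the targeted gene, had a mean signal of 3319 in Flk1-positive cells, 544.7 in WT embryos and 46.6 in Flk1 KO embryos, in the order of the labels, and is a check and no finding. The trimmed mean signal was 500.003 on every array, and arrays of a group correlated with r between 0.980 and 0.984 over the tested probe sets. Signals were compared as log2(signal + 21.6), a scale that understates the change of dim genes. The background level was a signal of 57.6, set at the 95th percentile of 78 probe sets for olfactory or vomeronasal receptors. Differences are log2 values ± SE from limma with n = 2 arrays per group, and a call is a limma adjusted p under 0.05 over all 34621 probe sets tested. Nothing in the labels states that 2 arrays of a group are separate animals or cultures, so p-values reflect the spread between these samples alone, and that spread may be technical. All 10 endothelial markers (such as Cdh5, Pecam1 and Tie1) were higher in the Flk1-positive group than in WT embryos, with summed signals of 40996 and 41218 against 2728 and 2861.

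In Flk1-positive cells 5 of the 9 members were higher than in WT embryos, namely Klf2, Klf4, Klf6, Klf7 and Klf10, while Klf9 was lower and Klf3, Klf5 and Klf13 had no call. The brightest probe set on average stands for each gene. Over all 15205 genes tested in the same way, 12.2% were called higher and 17.5% lower. Without overlap of arrays 6 members were higher and 2 lower, and of all genes 30.4% and 41.8%. The median difference was 1.33 over the 9 members and -0.08 over all genes. Klf2 stood apart by size. By their brightest probe sets Klf4, Klf6, Klf7 and Klf10 lay close together, between 1.33 and 1.46 on the log2 scale. That spread was no larger than their standard errors of 0.14 to 0.21, but the other Klf7 probe sets gave 1.90, 2.13 and 2.19.

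**Figure D1:**
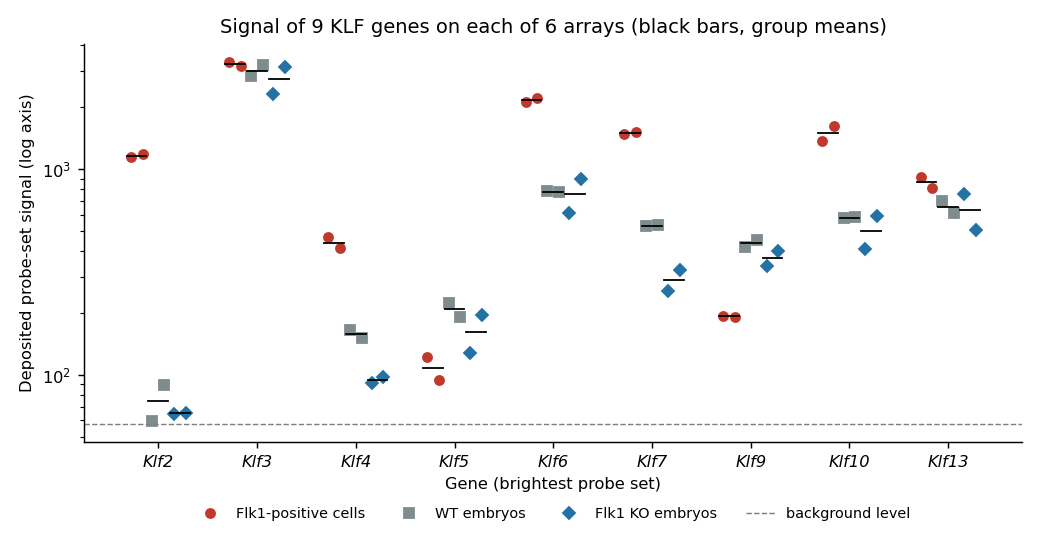
Signal of the brightest probe set of each of the 9 genes on each of the 6 arrays (log axis, points for arrays, black bars for group means, dashed line for the background level of 57.6). Klf2 reads 1139 and 1184 in Flk1-positive cells and between 59.6 and 89.3 on the 4 embryo arrays.

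Klf2, the shear-responsive factor needed for vessel integrity in the embryo, gave 1139 and 1184 on the arrays of Flk1-positive cells. Its WT signals were 59.6 and 89.3, and with Flk1 knocked out 64.5 and 65.2. Both arrays of Flk1-positive cells lay far above the 4 embryo arrays, and these 4 were all near the background level and overlapped between WT and Flk1 KO. Klf2 was 3.64 ± 0.18 higher in the Flk1-positive group than in WT embryos (12.5-fold on this scale; 95% interval 3.18 to 4.10; limma adjusted p = 0.000503). This gene had 1 probe set, so no second probe set bears on the value. In whole embryos fewer cells of a type and less RNA per cell cannot be told apart.

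Klf4, a close relative of Klf2 that acts in endothelium and in epithelial barriers, gave signals of 467 and 412 in the Flk1-positive group, 164 and 150 in the WT group and 91.6 and 97.3 in the Flk1 KO group. The 3 groups did not overlap, with the Flk1-positive cells highest and the Flk1 KO embryos lowest. Its difference between Flk1-positive cells and WT embryos was 1.36 ± 0.14 (2.57-fold; limma adjusted p = 0.00217). The second, dimmer Klf4 probe set read 175 and 167 in the Flk1-positive group, 59.0 and 84.0 in the WT group and 9.33 and 37.5 in the Flk1 KO group. It showed the same order of arrays, with a difference of 1.06 ± 0.33 and no call (limma adjusted p = 0.0699).

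Klf6 and Klf10 are Krüppel-like factors known to be induced quickly by growth factors, and Klf10 was described as an early target of TGF-beta. Klf6 gave signals of 2116 and 2223 in the Flk1-positive group, 782 and 774 in the WT group and 612 and 894 in the Flk1 KO group. The Flk1-positive arrays were the highest, and the Flk1 KO arrays lay on either side of the WT arrays. Klf6 was 1.45 ± 0.20 higher in the Flk1-positive group than in WT embryos (2.74-fold; limma adjusted p = 0.00619), and all 5 of its probe sets were called higher, with differences from 0.95 to 1.51. Of these, the probe set at 0.95 lost its call when any 1 array of either group compared was omitted (limma adjusted p = 0.0543 to 0.174), as did the dimmer of the pair at 1.51 (limma adjusted p = 0.0524 to 0.072).

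Klf10 gave signals of 1367 and 1623 in the Flk1-positive group, 576 and 585 in the WT group and 409 and 595 in the Flk1 KO group. Flk1-positive cells were again above all embryo arrays, and the embryo groups overlapped. The difference from WT embryos was 1.33 ± 0.21 (2.51-fold; limma adjusted p = 0.00949). This call ended without Flk1-positive replicate 2 (1.21, limma adjusted p = 0.0505), without WT replicate 1 (1.32, adjusted p = 0.0582) and without WT replicate 2 (1.34, adjusted p = 0.0556), and the adjusted p over all 17 alternative settings ranged from 0.000151 to 0.0582.

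Klf7, best known from developing neurons and sensory ganglia, gave signals of 1482 and 1509 in the Flk1-positive group, 527 and 533 in the WT group and 254 and 324 in the Flk1 KO group. As for Klf4, the 3 groups did not overlap. Klf7 was 1.46 ± 0.15 higher in the Flk1-positive group than in WT embryos (2.75-fold; limma adjusted p = 0.00267). The other 3 probe sets of Klf7 were called higher as well, with wider differences of 1.90, 2.13 and 2.19, so that the brightest probe set gave the smallest value of the 4.

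Klf9, a factor that thyroid and glucocorticoid hormones induce in other tissues, was the 1 member called lower. It gave signals of 193 and 192 in the Flk1-positive group, 419 and 451 in the WT group and 339 and 401 in the Flk1 KO group. Flk1-positive cells were below all 4 embryo arrays. The difference from WT embryos was -1.09 ± 0.14 (2.14-fold lower; limma adjusted p = 0.00489). Another Klf9 probe set was called lower (-1.23 ± 0.28, limma adjusted p = 0.03), but not without Flk1-positive replicate 2 or either WT array (limma adjusted p = 0.108 to 0.13). The other 4 tested probe sets had no call, with differences from -0.46 to 0.28, and 3 of them had both means below background. With the median over the probe sets of the gene in place of the brightest, Klf9 had no call (-0.50, limma adjusted p = 0.0927).

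Klf5, a factor of gut epithelium and smooth muscle, gave signals of 122 and 94.8 in the Flk1-positive group, 224 and 192 in the WT group and 127 and 196 in the Flk1 KO group. Flk1-positive arrays lay below both WT arrays, while the Flk1 KO arrays fell between these and overlapped the WT arrays. Its brightest probe set differed by -0.83 ± 0.23 without a call (95% interval -1.41 to -0.24; limma adjusted p = 0.0545). That value fell on the other side of the threshold in 7 of 17 alternative settings. Among them were the fit of only the 2 groups compared (limma adjusted p = 0.0369) and the median over the gene's probe sets (-0.76, limma adjusted p = 0.018). Leaving out either Flk1 KO array also counts among the 7, but it repeats the fit of the 2 groups and adds no separate result. The next probe set read 61.4 and 51.8, 106 and 102, and 76.7 and 75.5 in Flk1-positive cells, WT and Flk1 KO embryos. It was called lower (-0.69 ± 0.13, limma adjusted p = 0.0176), with a Flk1-positive mean not above background. That call ended when any 1 array of either group compared was omitted (differences from -0.77 to -0.60).

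Klf3, a repressor that works with the CtBP corepressors, read 3316 and 3163 in the Flk1-positive group, 2827 and 3203 in the WT group and 2332 and 3134 in the Flk1 KO group. The Flk1-positive arrays overlapped the WT arrays but both lay above the Flk1 KO arrays. The brightest probe set had no call against WT embryos (0.11 ± 0.18, 95% interval -0.36 to 0.57; limma adjusted p = 0.718). Its 6 tested probe sets did not act alike: 2 were called higher, at 1.05 ± 0.19 (limma adjusted p = 0.0136) and 0.47 ± 0.13 (limma adjusted p = 0.0495). The first of these calls ended without Flk1-positive replicate 1 or either WT array (limma adjusted p = 0.0528 to 0.0777), and the second without any 1 of the 6 arrays (limma adjusted p = 0.0584 to 0.208). With the median over its probe sets Klf3 was called higher (0.55, limma adjusted p = 0.0174).

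Klf13, related to Klf9 and known from heart development, read 911 and 811 in the Flk1-positive group, 700 and 615 in the WT group and 757 and 503 in the Flk1 KO group. Flk1-positive arrays were the highest by a small margin. No call was made (0.38 ± 0.22, 95% interval -0.18 to 0.94; limma adjusted p = 0.275), and the second tested probe set gave 0.46 ± 0.14 (limma adjusted p = 0.0623).

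**Figure D2:**
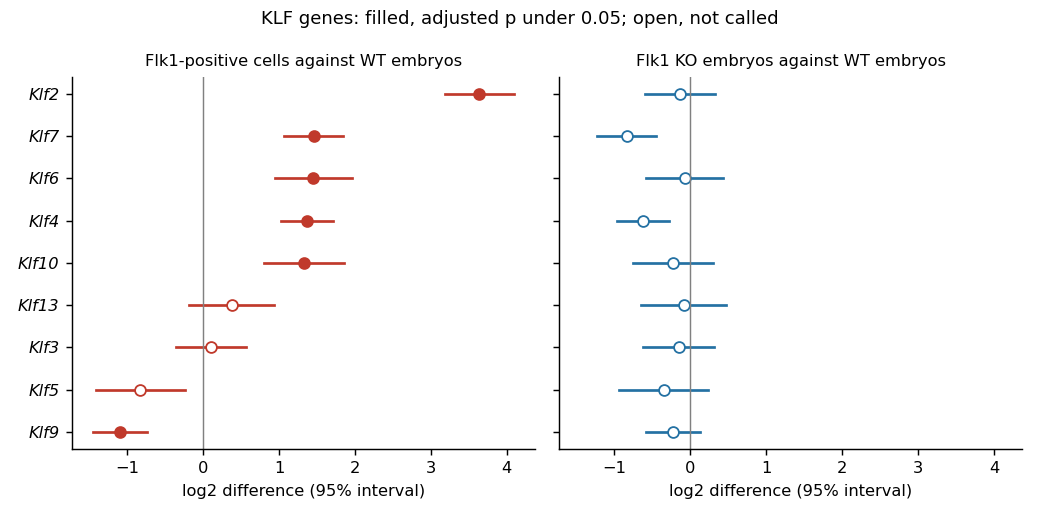
Log2 difference with its 95% interval for the brightest probe set of each gene, in Flk1-positive cells (left) and in Flk1 KO embryos (right), each against WT embryos. Klf2 lies at 3.64 on the left, and no gene is called on the right, where Klf7 (-0.84) and Klf4 (-0.62) have intervals below 0.

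Counted by probe set, 29 of the 33 had a mean signal at or above the filter and were tested, and 1 each of Klf3, Klf5, Klf9 and Klf13 was not. Of the 29, 14 were called higher and 3 lower in the Flk1-positive group than in WT embryos, where 11.2% and 13.8% of all probe sets tested were called. The 14 belonged to Klf2, Klf3, Klf4, Klf6, Klf7 and Klf10, and the 3 to Klf5 and Klf9. No gene had probe sets called in both directions. In Flk1 KO against WT embryos limma called none of the 29 and 0.0664% of all probe sets.

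**Figure D3:**
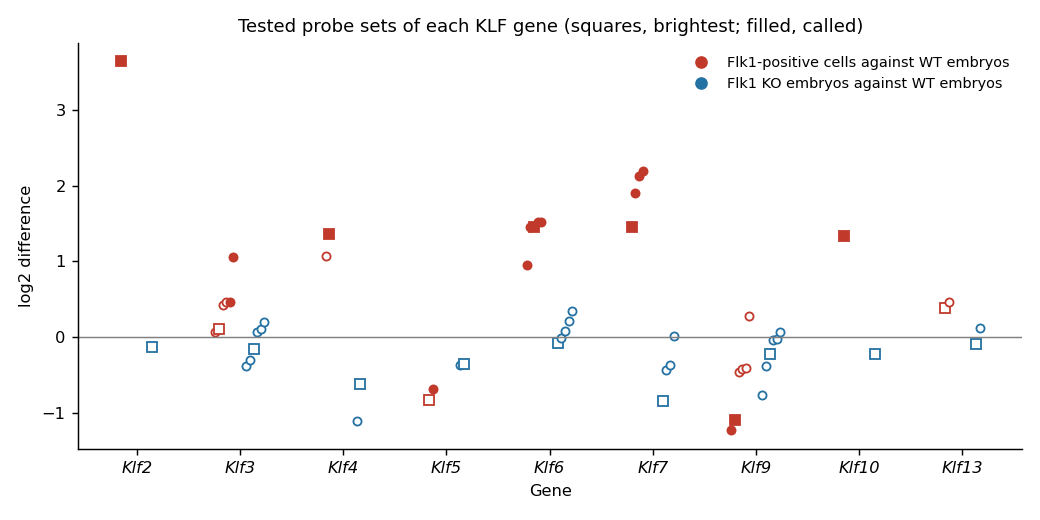
Log2 differences of the 29 tested probe sets by gene, in Flk1-positive cells (red) and Flk1 KO embryos (blue) against WT embryos; squares mark the brightest probe set and filled symbols a call. All 4 probe sets of Klf7 and all 5 of Klf6 are called higher in red, and no blue symbol is filled.

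Relative to the Flk1-positive cells, the WT embryos kept different shares of the signal. The mean WT signal was 6.41% of that in Flk1-positive cells for Klf2, beside 6.80% for the summed endothelial markers, 2.02% for the primitive erythroid markers, 9.44% for the other blood markers and 16.4% for Kdr. For Klf4, Klf6, Klf7 and Klf10 the share was larger, at 35.8%, 35.9%, 35.4% and 38.8%, for Klf13 it was 76.4% and for Klf3 93.1%. These shares are of each gene's brightest probe set and depend on that choice. The other Klf7 probe sets had WT means of 346, 224 and 160 against 1586, 1103 and 651 in Flk1-positive cells, which are smaller shares. Klf5 and Klf9 read higher in WT embryos, at 192% and 227%, the former without a call. Signals near the background level hold some signal that is not the gene's own, so the shares of dim genes are uncertain.

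No member was called in Flk1 KO embryos against WT embryos, where limma called 0 of the 9 genes and 0.132% of all genes tested. Kdr, the targeted gene, had no call there either (-3.10 ± 0.25, limma adjusted p = 0.0516), so a missing call does not show an unchanged gene. At an unadjusted p under 0.05 there were 2 of 9 members, Klf7 and Klf4, against 6.31% of all genes. Klf7 differed by -0.84 ± 0.15 (95% interval -1.23 to -0.45; limma adjusted p = 0.248), and its WT mean of 530 stood against a Flk1 KO mean of 289. The other Klf7 probe sets gave -0.43, -0.37 and 0.01, so the size of this difference depended on the probe set. An intensity trend with a robust prior brought Klf7 past the threshold (limma adjusted p = 0.0354), and over the 17 alternatives the adjusted p reached 0.823. Klf4 differed by -0.62 ± 0.14 (95% interval -0.97 to -0.28, limma adjusted p = 0.338). Its second probe set, with both Flk1 KO arrays below background, gave -1.11 ± 0.33, to be read as at least 1.23-fold lower.

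Klf2 differed by -0.13 ± 0.18 between Flk1 KO and WT embryos (95% interval -0.59 to 0.32; limma adjusted p = 0.895), at means close to background in both. Klf6, Klf10, Klf3 and Klf13 gave -0.07 ± 0.20, -0.22 ± 0.21, -0.15 ± 0.18 and -0.09 ± 0.22, with overlapping arrays for all 4. Klf9 (-0.22 ± 0.14) and Klf5 (-0.35 ± 0.23) had no call either. In 3 of the 9 members, Klf4, Klf7 and Klf9, the Flk1 KO arrays were each below the pair of WT arrays, as was true of 18.1% of all genes tested. The Flk1 KO mean was 54.6% of the WT mean for Klf7, 60.1% for Klf4 and between 77.6% and 96.7% for the other members, while for the summed endothelial markers it was 28.5%, with 3 of 10 called lower. Cardiomyocyte markers differed alongside, with summed signals of 26837 and 39110 in Flk1 KO against 19844 and 20120 in WT embryos and 0 of 8 genes called, and their part in the values above was not tested.

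Set directly against Flk1 KO embryos, Flk1-positive cells gave the same 6 calls, with 12.9% of all genes called higher and 19.1% lower. The differences were 3.77 ± 0.18 for Klf2, 2.30 ± 0.15 for Klf7, 1.99 ± 0.14 for Klf4, 1.55 ± 0.21 for Klf10, 1.52 ± 0.20 for Klf6 and -0.87 ± 0.14 for Klf9 (limma adjusted p from 0.000306 to 0.0093). The comparisons share arrays, so they are not independent. All 6 calls held on leaving out each array, and that of Klf9 was lost with the median over its probe sets (-0.21, limma adjusted p = 0.427).

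Flk1-positive cells also held markers of blood cells and immediate early transcripts, and these moved with the 5 members that were higher. All 7 primitive erythroid markers tested were higher than in WT embryos, with summed signals of 43518 and 45156 against 624 and 1172. Of 9 markers of other blood cells 8 were higher, at 9192 and 9294 against 817 and 927, and no marker of either list was at or below background in Flk1-positive cells. Markers of cardiomyocytes (8 of 8), neuroectoderm (8 of 8), gut and surface epithelium (8 of 8) and mesenchyme and somites (7 of 8) were lower. For the transferrin receptor control, 3' probe sets exceeded 5' ones by log2 values of 1.26 and 1.35 in Flk1-positive cells and of 0.94 to 1.05 on the other arrays. The Actb control went the other way, at 0.26 and 0.29 against 0.47 to 0.58, and the Gapdh control overlapped, at -0.36 and -0.32 against -0.37 to -0.32. The part of blood cells, of RNA quality and of the immediate early response in the values of the members was not tested.

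Immediate early genes are those that cells transcribe within minutes of a stimulus or of handling. Of 20 such genes, 14 were higher and 2 lower in the Flk1-positive group than in WT embryos, with a median of 1.48. The shares of all genes were 12.2% higher and 17.5% lower, with a median of -0.08. Fos read 3008 and 3169 against 76.7 and 94.8 in WT embryos, a difference of 4.86 ± 0.21 (limma adjusted p = 0.000456). Egr1 followed with 3.29 ± 0.15, and Fosb was at least 5.12-fold higher. Egr2, which also patterns the hindbrain, was lower (-2.28 ± 0.17), and Fosl1 was called lower at means below background in both groups, a call that ended on leaving out Flk1-positive replicate 1 or either WT array (limma adjusted p = 0.0618 to 0.115). None of the 20 was called by limma in Flk1 KO against WT embryos, where 0.132% of all genes tested were called.

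The genes known to act above Klf2 and Klf4 were given by a list of 17 from the MEKK3, ERK5, MEF2 and CCM cascade. In Flk1-positive cells 6 of them were higher and 1 lower than in WT embryos, with a median of 0.42. Over all genes 12.2% were called higher and 17.5% lower, with a median of -0.08. The class IIa histone deacetylase gene Hdac7, whose product binds MEF2 proteins, was higher by 1.72 ± 0.16, Mef2c by 1.52 ± 0.14 and Mef2a by 1.49 ± 0.13 (limma adjusted p = 0.00146 to 0.00177). Hdac9 was called lower with both means below background. The kinases of the cascade, named after their values were seen, did not move together. Map3k3, which encodes MEKK3, was higher by 1.02 ± 0.22 (limma adjusted p = 0.0233), a call that ended when any 1 array of either group compared was omitted (limma adjusted p = 0.0833 to 0.113). Map2k5 (MEK5) and Mapk7 (ERK5) differed by -0.15 ± 0.20 and -0.03 ± 0.12 without a call. None of the 17 was called in Flk1 KO against WT embryos, where the share of all genes tested was 0.132%.

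**Figure D4:**
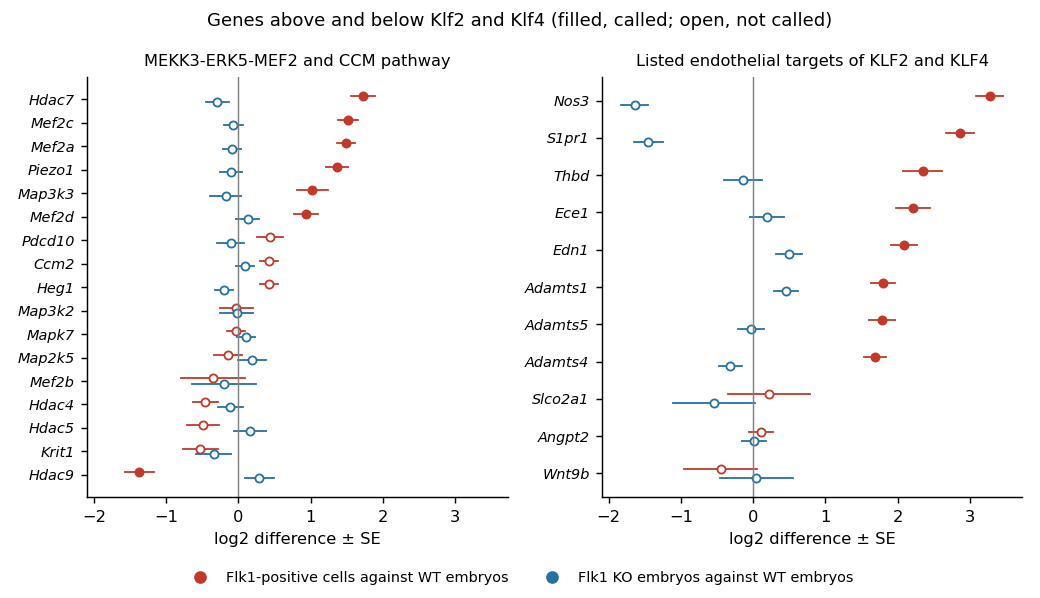
Log2 difference ± SE against WT embryos for the 17 cascade genes (left) and the 11 tested target genes (right), in Flk1-positive cells (red) and Flk1 KO embryos (blue); filled symbols are called. Nos3 and S1pr1 reach 3.27 and 2.86 in red and -1.64 and -1.45 in blue, without a call in blue. Both Flk1 KO arrays of S1pr1 read below background.

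Among genes known to respond to KLF2 or KLF4 in endothelial cells, 8 of 11 tested were higher in Flk1-positive cells and none lower. Their median was 1.80, beside -0.08 over all genes, of which 12.2% were called higher and 17.5% lower. Nos3, the endothelial nitric oxide synthase, read 3849 and 3814 in the Flk1-positive group, 427 and 332 in the WT group and 122 and 92.3 in the Flk1 KO group. The groups did not overlap, and the difference between Flk1-positive cells and WT embryos was 3.27 ± 0.19 (limma adjusted p = 0.000569). The sphingosine 1-phosphate receptor gene S1pr1 was higher by 2.86 ± 0.20 and the thrombomodulin gene Thbd by 2.34 ± 0.26. Edn1, which encodes endothelin and which KLF2 is known to lower, was among the 8 (2.09 ± 0.18), and Angpt2, also known as lowered by KLF2, had no call (0.11 ± 0.16); both were named after their values were seen. Several of these genes, Nos3, S1pr1 and Thbd among them, are also general endothelial transcripts. In Flk1 KO against WT embryos 0 of the 11 were called by limma, beside 0.132% of all genes tested. Nos3 differed by -1.64 ± 0.19 and S1pr1 by -1.45 ± 0.20 (limma adjusted p = 0.105 and 0.148). Both Flk1 KO arrays of S1pr1 read below background (57.5 and 46.4), so its dimmer mean gives only a bound. The count stayed at 0 in 14 of 17 alternative settings and reached at most 2 in the others. An intensity trend with a robust prior called 2 lower.

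Of the remaining Krüppel-like and SP factors most had no call. Among 14 tested, 8 had none, 2 were higher and 4 lower in the Flk1-positive group than in WT embryos, with a median of -0.26, where 12.2% of all genes were called higher and 17.5% lower. Klf1, the erythroid factor, was at least 12.6-fold higher and Klf14 higher by 1.53 ± 0.17. Sp5 and Sp8, targets and partners of Wnt and FGF signalling in the early embryo, were lower, as was Klf15 (limma adjusted p from 0.000628 to 0.00584). Sp8 fell at least 12.7-fold and Klf15 at least 3.21-fold. Sp5 differed by -4.13, and by -5.03 to -3.22 without single arrays. Its Flk1-positive arrays were far apart, at 82.2 and 8.11 against 936 and 961 in WT embryos. Of 12 cofactors and turnover factors, 2 were higher and 2 lower, shares near those over all genes. The acetyltransferase gene Kat2b rose by 1.77 ± 0.12 and the Sin3 complex gene Sap30 fell by 1.45 on the log2 scale, while Sin3b (0.74 ± 0.16) and Sin3a (-0.64 ± 0.12) lost their calls when any 1 array of either group compared was omitted, which left 2 calls in the list. An intensity trend with a robust prior called 8 of the 12.

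Other genes followed some members closely over the 6 arrays. Likeness was measured as the root mean square distance between log2 values, each centred on its gene's mean, which favours flat genes for members that vary little. Nearest to Klf2 were Arhgdib (0.12), Tm4sf1, a tetraspanin-like protein of endothelial cells (0.13), and Myo7a (0.13). Klf7 was nearest to Gata2, a blood and endothelial transcription factor (0.097), Npr3 (0.10) and Fcgr3 (0.14), and Klf4 to Card6 (0.086), Npr3 (0.088) and Dcaf12l1 (0.091). For Klf6 they were Hmcn1 (0.045), Dip2a (0.061) and Egln3 (0.062), for Klf10 Dgkz (0.078), Cd44 (0.079) and Rin1 (0.080), and for Klf9 Scpep1 (0.046), Dpp4 (0.047) and Irx5 (0.055). Klf5 had Pgap2, Phf21b and Pcm1 (0.078 to 0.087), Klf3 Ttc13, Rnf115 and Cbl (0.026 to 0.037), and Klf13 Med28, Mrs2 and Siglecg (0.037 to 0.064). Among the 36 pairs of members the nearest were Klf6 with Klf10 (0.084), Klf4 with Klf7 (0.16) and Klf5 with Klf9 (0.22), and Klf2 was at least 0.92 from any other member.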

How the data were processed

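Total RNA was labelled with biotin for Affymetrix arrays (labels' protocols). The authors deposited signal on a linear scale, 45101 probe sets by 6 arrays, with equal trimmed means on all arrays; the sources used here do not name the scaling program. Gene symbols came from the platform annotation (34958 with 1 symbol, 932 with several, 9211 with none). Signals were transformed as log2(signal + 21.6), the pseudocount being the 25th percentile of all values, on the deposited scale, since array medians lay within 0.15 of each other (limit 0.2). After 64 control probe sets and those with a mean under that percentile were left out, 34621 probe sets of 15205 genes were tested in R 4.3.3 with limma 3.58.1 (lmFit, eBayes, group as the only term, all 6 arrays, 3 residual and 2.44 prior degrees of freedom, two-sided tests, Benjamini-Hochberg adjustment). The procedure was tested on simulated data. Python 3.11.15 with matplotlib 3.10.9 drew the figures.

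A dimmer mean gives only a bound where both its arrays read below background. The bound is the brighter mean over the background level, written as at least N-fold. Named were all members, Kdr, up to 3 called genes per list and direction, and the 3 nearest genes of each member; exceptions are marked. The members and lists were chosen with earlier results of these data known. Alternatives were other pseudocounts, filters, scalings and priors, only the groups compared, a replicate block, the median over probe sets, a 2-fold limit and leaving out each array; a filter at the 25th percentile of probe-set means was chosen after seeing the data.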

Additional observations from a re-analysis of the deposited data

How the results depend on the processing

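Of the 6 member calls in Flk1-positive cells against WT embryos, 98 of 102 combinations with 17 alternatives kept their call, the exceptions being Klf10 without 3 single arrays and Klf9 with the median over probe sets, and against Flk1 KO embryos 101 of 102 did. The count of members called in Flk1-positive cells ranged from 5 to 7 against WT embryos on leaving out single arrays and was 6 against Flk1 KO embryos. For Flk1 KO against WT embryos it was 0 except with an intensity trend and robust prior (1). Over all probe sets, 8674 calls against WT embryos became 4278 to 8759 without single arrays, 4892 with a 2-fold limit and up to 11138 (intensity trend) under the other settings, and 9807 against Flk1 KO embryos became 5815 to 7692, 5476 and up to 12138 (intensity trend). The 23 calls of Flk1 KO against WT embryos became 0 on leaving out any 1 array, with the smaller pseudocount, with the 2 groups alone and with the replicate block. They became 73 with the larger pseudocount, 7 without a filter, 99 with the stricter filter, 11 with quantile normalization, 12 with median centring and 134 with the trend. In that comparison median centring turned the sign of Klf6 (0.031) and Klf13 (0.017), and the median over probe sets that of Klf3 (0.16), Klf6 (0.12) and Klf13 (0.018), none of them called, and in Flk1-positive against Flk1 KO embryos the latter turned the immediate early gene Ier5 from 0.65 to -0.068. Without single arrays the values ran from -0.36 to 0.091 for Klf2, -0.37 to 0.058 for Klf3, -0.34 to 0.19 for Klf6, -0.48 to 0.034 for Klf10 and -0.37 to 0.20 for Klf13. The cause was not tested. The labels give no meaning to shared replicate numbers, whose deviations correlated at 0.0049 to 0.027, and the replicate block kept the 6 member calls in both comparisons with Flk1-positive cells. Where leaving out an array leaves 1 in a group, that array is assumed to vary like the other groups. For a comparison without that group, the fit equals that of the 2 groups alone, so the 17 alternatives are not all separate.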
